A study of Mus musculus with 12 samples.

Results

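The genes described here are 10 genes of the neutrophil granule programme: Mpo, Elane, Prtn3, Ctsg, Ngp, Camp, Ltf, S100a8, S100a9 and Mmp8. They are 10 of the 38924 genes in the deposited tables, each symbol matching 1 row. Whole spinal cord was taken from 12 mice at 8 weeks of age on a B6J;FVB background, and polyA RNA was sequenced in 1 library per mouse. There were 6 mice of genotype ETAQ+/-, titled ETAQ (3 females and 3 males), which carry the delETAQ allele of Gars, the glycyl-tRNA synthetase gene, in 1 copy. The other 6 mice were ETAQ+/+, titled WT (3 females and 3 males). The mice also fell into 2 sets by the number in their titles. The first set, mice 1 to 6, had 3 WT mice, all male, and 3 ETAQ mice, of which mouse 1 was female. The second set, mice 7 to 12, had 3 WT mice, all female, and 3 ETAQ mice, of which mouse 11 was male. The labels do not say what the numbers stand for, and 2 library kits are named without saying which libraries each was used for. Only mice 1 and 11 therefore separate sex from mouse set.

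Neutrophils are short-lived phagocytes made in bone marrow. Their precursors make granule proteins in order: promyelocytes make the primary granule proteins, and myelocytes, metamyelocytes and later stages make those of the specific and gelatinase granules. Much of this transcription has ended in the circulating cell, so transcripts of the primary granule proteins are best known from marrow precursors. Healthy spinal cord tissue holds few neutrophils, whereas the vertebrae around it contain marrow. The primary granule genes here are Mpo, which encodes myeloperoxidase, and Elane, Prtn3 and Ctsg, which encode the serine proteases neutrophil elastase, proteinase 3 and cathepsin G. Ngp encodes neutrophilic granule protein, Camp the cathelicidin antimicrobial peptide, Ltf lactoferrin and Mmp8 neutrophil collagenase. S100a8 and S100a9 encode the subunits of calprotectin, an abundant calcium-binding protein of the neutrophil cytoplasm.

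The genes lie in a few places of the mouse genome (GRCm38, GENCODE M21). Elane (chr10:79886247-79888215) starts 3072 bases after the end of Prtn3 (chr10:79874476-79883174), and 22596 bases separate S100a8 (chr3:90668978-90670035) from S100a9 (chr3:90692632-90695721). Camp (chr9:109847379-109849617), Ngp (chr9:110419747-110423012) and Ltf (chr9:111019271-111042767) lie along 1 stretch of chromosome 9, with gaps of 570129 and 596258 bases. Mmp8 (chr9:7558456-7568485) is elsewhere on the same chromosome. Mpo (chr11:87793581-87804413) and Ctsg (chr14:56099881-56102574) stand on their own.

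Granule genes are known targets of C/EBP factors and of the ETS factor PU.1, and the bases just before 6 of the start sites are shown because they hold short motifs of those families. The sequences are from RefSeq for GRCm38.p6, plus strand, 5′ to 3′, and each ends at the base before the most upstream start within the RefSeq promoter window. The motifs GAGGAA (the first 3 sequences) and TTGCNNAA (the last 3) are in capitals. In Ltf the capitals are the reverse complement, since its TTGCNNAA lies on the other strand.
Mpo, chr11:87793534-87793580: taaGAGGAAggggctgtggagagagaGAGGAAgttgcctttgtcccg
Elane, chr10:79886147-79886246: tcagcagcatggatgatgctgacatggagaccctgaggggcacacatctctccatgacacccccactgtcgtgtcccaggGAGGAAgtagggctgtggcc
Prtn3, chr10:79879514-79879613: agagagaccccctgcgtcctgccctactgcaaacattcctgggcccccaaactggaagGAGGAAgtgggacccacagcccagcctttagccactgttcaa
Ngp, chr9:110419647-110419746: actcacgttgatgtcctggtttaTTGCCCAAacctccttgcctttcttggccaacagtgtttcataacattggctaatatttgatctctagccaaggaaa
Ltf, chr9:111019171-111019270: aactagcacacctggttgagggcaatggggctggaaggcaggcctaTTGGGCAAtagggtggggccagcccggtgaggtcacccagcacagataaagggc
Mmp8, chr9:7558329-7558428: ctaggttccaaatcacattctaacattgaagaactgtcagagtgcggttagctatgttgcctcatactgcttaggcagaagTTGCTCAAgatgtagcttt

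In the primary granule genes Elane and Prtn3, GAGGAA ended 14 and 36 bases before the start, and Mpo held 2 copies within 47 bases. The Prtn3 window lies inside the GENCODE span of that gene given above, so its start is not the first annotated start of Prtn3. In the specific granule genes Ngp, Ltf and Mmp8, TTGCNNAA ended 69, 46 and 11 bases before the start. Over the 250 bases before the RefSeq start, searched on both strands, GAGGAA was found in 7 of the 10 genes and in 23.25% of 32851 promoters. The 7 were the primary granule genes Ctsg, Elane, Mpo and Prtn3 and also Ltf, Mmp8 and S100a8, so the motif was not limited to the primary granule genes. In the shorter windows cut at the start, the other strand of S100a8 held it 71 bases before the start, and Ctsg did not hold it. TTGCNNAA was found in 4 of 10 (Ltf, Mmp8, Ngp and S100a9) and in 9.56% of promoters. Camp, also a specific granule gene, did not hold it, so this motif neither covered the specific granule genes nor was limited to them. GAGGAAGT, a longer form chosen after the sequences were seen and overlapping GAGGAA, was found in 5 of 10 and in 2.44% of promoters. TGTGGT, a RUNX motif, was found in 2 of 10 and in 14.05%, and AGATAA, a motif of the GATA factors, in 2 of 10 and in 9.99%. These are letter matches only, and no binding was measured.

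Library totals ran from 23595929 to 41452662 expected counts, so that 3 counts correspond to between 0.073 and 0.129 normalised CPM, which is the count scaled to the TMM-adjusted library total. Gars itself averaged 127 ± 4.95 CPM in WT mice and 145 ± 5.79 in ETAQ mice (SD, n = 6 each), with an edgeR adjusted p of 0.00408. The counts do not separate the 2 alleles, so they are no check of the genotype labels. Transcripts of 16 defining spinal cord genes summed to 38100–45770 CPM in mice 1 to 6 and 34570–41790 CPM in mice 7 to 12. Of these, 1 of the 16 passed the test between the sets (Syt1, a synaptic vesicle gene, lower in mice 1 to 6), so the labelled tissue was evident in both sets.

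All 10 granule genes were higher in mice 1 to 6 than in mice 7 to 12, and for each of them every mouse of the first set was above every mouse of the second. Over all genes tested, 4.93% were called higher in mice 1 to 6 and 5.0% were without overlap in that direction. For 9 of the 10 the fitted difference was a log2 fold change between 5.21 and 7.23, and Prtn3 differed by 1.28. Between genotypes, with sex in the model, 0 of the 10 passed the test, against 1.92% of all genes tested. The difference between mouse sets was first noticed in these same libraries, and Mpo was among the genes that showed it. Its tests are therefore not independent evidence. In bulk tissue, fewer neutrophil-lineage cells and less granule RNA per cell cannot be told apart.

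**Figure D1:**
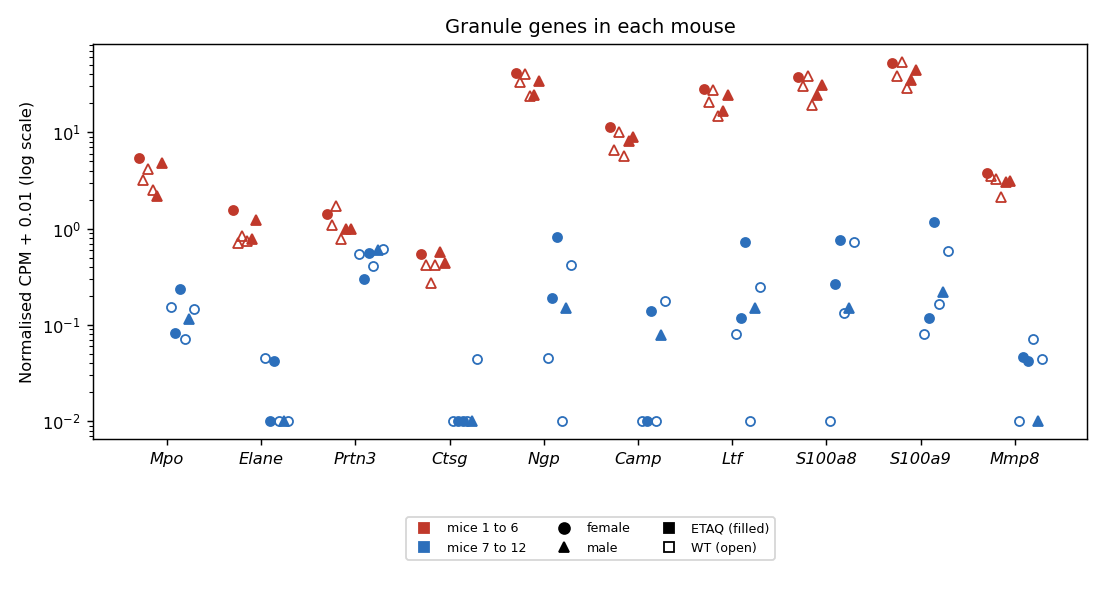
Normalised CPM (log scale) of the 10 granule genes in each of the 12 mice, with 0.01 added so that 0 can be drawn. Each point is a mouse, red for mice 1 to 6 and blue for mice 7 to 12, filled for ETAQ and open for WT, a circle for females and a triangle for males; for every gene the red points lie above the blue ones, by the least for Prtn3.

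Among the primary granule genes, Mpo ranged from 2.14 to 5.36 CPM in mice 1 to 6 (median 3.68). In mice 7 to 12 it ranged from 0.0614 to 0.226 CPM (median 0.120). The lowest of the first set was thus several-fold above the highest of the second. The fitted log2 fold change was 5.21 ± 0.35 (SE), with an edgeR quasi-likelihood adjusted p of 5.94e-07 over 17189 genes tested. In rounded counts, 689 stood against 22 over the 6 libraries of each set. The depth-scaled ratio was 29.5, with a 95% exact interval of 19.4–47.4 that covers counting error only.

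Elane ranged from 0.701 to 1.54 CPM in mice 1 to 6 (median 0.804). In mice 7 to 12, 4 of 6 libraries had 0 counts and the other two, mice 7 and 9, had 1 count each. The gene was thus near or under the counting floor throughout the second set. The ratio of pooled counts was 85.4 (95% exact interval 23.3–710.1), and the edgeR adjusted p was 1.25e-06.

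Ctsg was the lowest of the 10 in mice 1 to 6, at 0.266–0.557 CPM (median 0.420). A single count, in mouse 12, was recorded for it over all of mice 7 to 12. The ratio of pooled counts was 76.4, with a 95% exact interval of 13.3–3054 that shows how little a single count fixes it. The edgeR adjusted p was 7.04e-05, and 0.0587 when mouse 1 was left out, although the fitted log2 fold change was then 6.83, against 5.63 with all mice. Without mouse 12, which held the single count, it was 6.85. The fit without mouse 1 rests on mouse 11, the 1 male of mice 7 to 12, which had 0 counts of Ctsg.

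Prtn3 differed from the other primary granule genes in remaining well above 0 in the second set. It ranged from 0.779 to 1.71 CPM in mice 1 to 6 (median 1.03) and from 0.290 to 0.611 CPM in mice 7 to 12 (median 0.543). The sets did not overlap, but the highest mouse of the second came close to the lowest of the first. The fitted log2 fold change was 1.28 ± 0.31 (SE), with an edgeR adjusted p of 0.0177. It was 0.72 without mouse 1 (edgeR adjusted p = 0.544) and 1.72 without mouse 11 (edgeR adjusted p = 0.0594), so the call needed both mice. In rounded counts, each library of mice 7 to 12 held 8 to 18 Prtn3 counts, against 2 to 7 for Mpo and 0 or 1 for Elane. On the per-length TPM scale, the Prtn3 to Mpo ratio was 0.626–1.93 in mice 1 to 6 and 5.63–28.3 in mice 7 to 12.

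Annotated exons of Prtn3 overlap those of Plppr3, a brain-expressed phosphatase-related gene on the opposite strand, over 159 bases, which is 9.18% of the exonic bases of Prtn3. Of the distinct 75-base stretches in its annotated transcripts, 5.06% for Prtn3 and 6.94% for Mpo also occur in transcripts of other genes, on either strand. For the other 8 genes the share was 0.0%. Plppr3 stood at 33.3–43.0 CPM over all 12 libraries. The strand setting of the counting is not given in the sources used here, and the part of Plppr3 reads in the Prtn3 values was not tested. Mpo exons overlap those of Gm11505, an opposite-strand model, over 512 bases. The level of Gm11505 was not examined, and the part of its reads in the low Mpo values was not tested.

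Among the other 6 genes, S100a9 had the highest counts, at 29.0–53.5 CPM in mice 1 to 6 (median 41.1). In mice 7 to 12 it ranged from 0.0716 to 1.16 CPM (median 0.181). The fitted log2 fold change was 7.01 ± 0.48 (SE), with an edgeR adjusted p of 6.53e-05. It was 7.79 without mouse 9 and 7.62 without mouse 1. S100a8, its partner, ranged from 19.0 to 38.0 CPM (median 30.6) against 0 to 0.744 CPM (median 0.196), with 0 counts in mouse 7. Its fitted log2 fold change was 6.78, and 7.65 without mouse 1. The values without mouse 1 rest on mouse 11, which had 4 counts of S100a8 and 6 of S100a9. Both calprotectin genes were thus high in every mouse of the first set, and mice 9 and 12 had the highest values of the second.

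Ngp ranged from 23.5 to 40.9 CPM in mice 1 to 6 (median 33.7) and from 0 to 0.808 CPM in mice 7 to 12. Ltf ranged from 14.8 to 28.1 CPM (median 22.6) against 0 to 0.711. Camp ranged from 5.62 to 11.3 CPM (median 8.51) against 0 to 0.170. Of these specific granule genes, Ngp and Ltf had 0 counts in mouse 10, and Camp had 0 counts in mice 7, 8 and 10. The ratios of pooled counts were 121.7 for Ngp (95% exact interval 91.4–165.8), 132.5 for Camp (73.8–265.9) and 100.9 for Ltf (73.4–142.8), and these intervals overlap one another. Mouse 9 held 25 of the 47 Ngp counts and 22 of the 38 Ltf counts of mice 7 to 12. Without it the fitted log2 fold changes were 8.02 for Ngp (7.21 with all mice) and 7.85 for Ltf (6.91 with all mice).

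Mmp8 ranged from 2.09 to 3.73 CPM in mice 1 to 6 (median 3.19), and no mouse of the second set had more than 2 counts. It had the smallest adjusted p of the 10, at 2.32e-08 in edgeR, with a log2 fold change of 6.83 ± 0.37 (SE). Without mouse 1 its log2 fold change was 9.54, and that of Elane was 7.92. With mouse 1 left out, the fit has no female in the first set. The mouse-set term then rests on mouse 11, the 1 male of mice 7 to 12, which had 0 counts of both genes. The 10 called genes compare with 848 of the 17189 tested (4.93%) that were called higher in mice 1 to 6. All 10 were without overlap between the sets in that direction, against 5.0% of the genes tested. A log2 fold change of at least 5 was reached by 9 of the 10 and by 75 genes in all (0.436%). Camp ranked 21 of 17189 by this fold change, and Prtn3 ranked 430. Only Prtn3 would have passed the filter on low counts through mice 7 to 12, so for the other 9 the filter itself was met through mice 1 to 6.

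**Figure D2:**
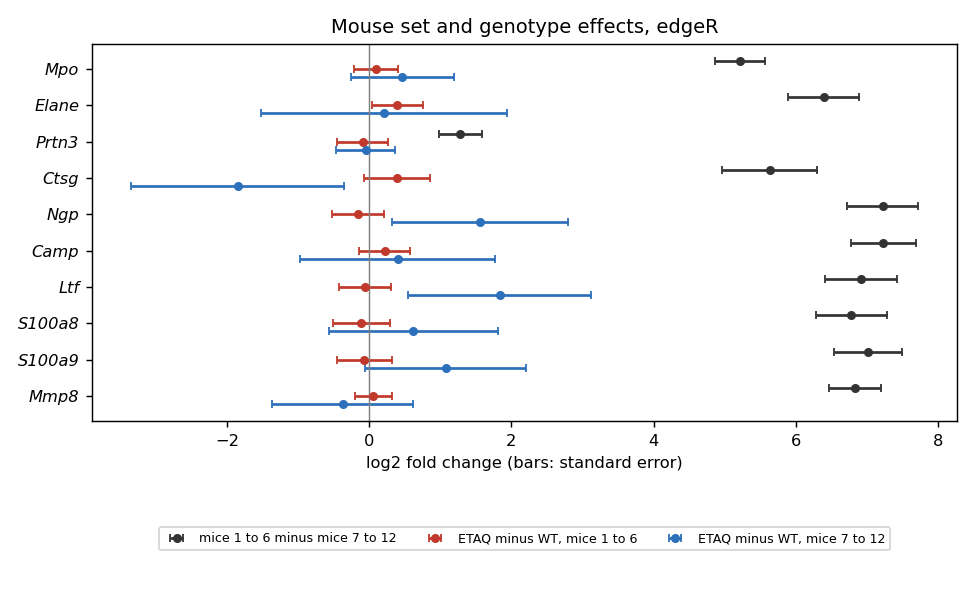
Fitted log2 fold changes of the 10 granule genes with standard errors as bars, for mouse set (mice 1 to 6 over mice 7 to 12, black) and for ETAQ over WT within mice 1 to 6 (red) and within mice 7 to 12 (blue). The mouse-set values lie between 1.28 and 7.23, and the genotype values lie between -0.16 and 0.40 in mice 1 to 6 and between -1.85 and 1.83 in mice 7 to 12.

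Per transcript length, the 10 genes spanned a wide range of levels in mice 1 to 6. S100a8 was the most abundant at a median of 300.8 TPM (the authors' deposited unit, scaled for transcript length; range 189.0–389.4). S100a9 followed at 237.4 TPM (169.3–324.4) and was below S100a8 in 6 of 6 mice, although their ranges overlap. The calprotectin genes together made up 81.4–83.0% of the summed TPM of the 10 in each of these mice. Ngp (median 54.97 TPM), Camp (37.97 TPM) and Ltf (14.5 TPM) came next, in that order in 6 of 6 mice.

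The remaining 5 genes were much lower. Mpo had a median of 3.50 TPM, Prtn3 2.87 TPM, Mmp8 2.40 TPM, Elane 1.93 TPM and Ctsg 0.905 TPM. Neighbours in this order did not separate throughout: Mpo was above Prtn3 in 3 of 6 mice, and Mmp8 was above Elane in 3 of 6. Ctsg lay below Elane without overlap. In mice 7 to 12 the order began with S100a8 (median 2.10 TPM), Prtn3 (1.58 TPM) and S100a9 (1.13 TPM), and the medians of the other 7 genes were lower.

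The summed TPM of the 4 primary granule genes was 1.34–1.59% of that of the other 6 in mice 1 to 6. The share varied little although the summed CPM of the 10 genes varied from 98.5 to 182.4. In mice 7 to 12 the same share ranged from 10.1% to 347.3%, with a median of 39.4%. The highest value came from mouse 7, whose other 6 genes summed to 0.55 TPM, and the next was 58.6% in mouse 11. Prtn3 supplied 12.5–60.0% of the 10 genes' counts in those mice and 0.644–0.954% in mice 1 to 6. Without Prtn3 the shares were 0.809–1.11% in mice 1 to 6 and 1.44–60.0% in mice 7 to 12 (median 2.02%), where the summed counts of all 10 genes were only 25 to 136 per library. The 60.0% was again mouse 7, and the next was 4.21% in mouse 8. Prtn3 was left out after its values were seen.

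**Figure D3:**
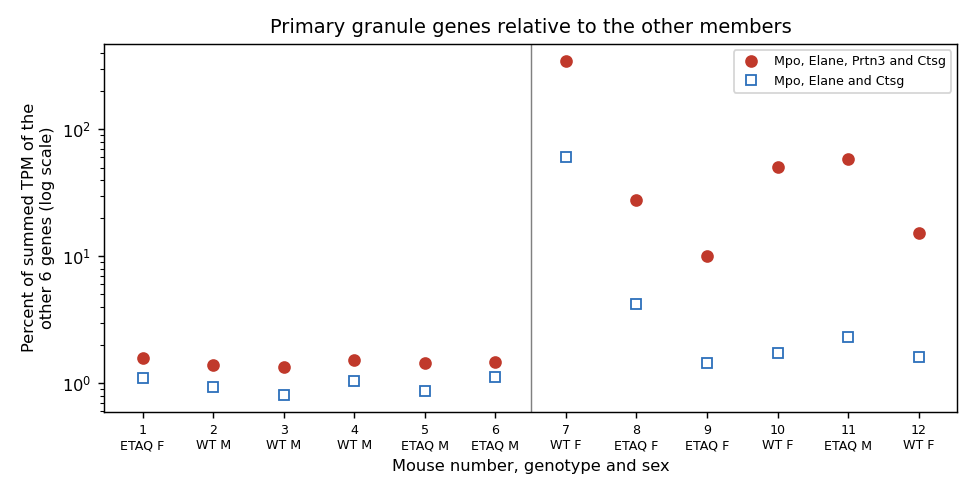
Summed TPM of the 4 primary granule genes as a percent of the summed TPM of the other 6 genes in each mouse (log scale), with and without Prtn3. Mice 1 to 6 lie between 1.34% and 1.59%, and mice 7 to 12 spread from 10.1% to 347.3% with Prtn3 included.

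Within mice 1 to 6, 9 of the genes varied far less than between the sets, and Prtn3 varied by 2.2-fold, close to its pooled ratio of 2.27 between the sets. The highest mouse exceeded the lowest by 1.74-fold for Ngp and by 2.50-fold for Mpo, with the other genes between these. Mouse 1 was among the top 2 of the 6 for 10 of 10 genes and the highest for 6. Mouse 4 was the lowest for 7. Within mice 7 to 12, mouse 9 was the highest for 5 genes and mouse 12 for 3. Mice 1 and 9 are both ETAQ females, and mice 4 and 12 are both WT, a male and a female.

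Between the genotypes, none of the 10 granule genes passed the test. Mpo ranged from 0.0724 to 5.36 CPM in the 6 ETAQ mice (median 1.19) and from 0.0614 to 4.14 CPM in the 6 WT mice (median 1.33). Prtn3 had similar ranges, 0.290–1.42 CPM in ETAQ and 0.399–1.71 CPM in WT mice. With sex in the model, the ETAQ over WT log2 fold changes of the 10 ran from 0.02 (Prtn3) to 1.44 (S100a9), with a median of 1.22 against 0.00 for all genes. The smallest edgeR adjusted p was 0.822, and 0 of the 10 had an unadjusted p under 0.05. DESeq2 also called 0 of the 8 it gave an adjusted p (none was given for Camp and Mmp8), and limma-voom called 0 of 10. The background was 330 genes (1.92%) called by edgeR. The genotypes overlapped for all 10, where 2.01% of genes did not overlap. The positive direction was not kept: limma-voom gave -2.29 to -0.09, and without mouse 1 edgeR gave negative values for all 10. With mouse set in the model the values ran from -0.07 to 0.39 (median 0.09), again with 0 of 10 called against 465 genes (2.71%).

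Within mice 1 to 6, which hold 3 ETAQ and 3 WT mice, the log2 fold changes for genotype were -0.16 to 0.40, with a median of 0.00. In edgeR 0 of the 10 were called, against 0.803% of genes. Elane was at 1.54, 0.772 and 1.21 CPM in the ETAQ mice and at 0.701, 0.836 and 0.730 CPM in the WT mice, so the groups overlapped. Ctsg was at 0.533, 0.557 and 0.425 CPM in the ETAQ mice and at 0.414, 0.266 and 0.414 CPM in the WT mice. It was the 1 gene of the 10 without overlap there, where 15.5% of all genes did not overlap. Within mice 7 to 12 the values ran from -1.85 to 1.83 at a few counts per library, with 0 of 10 called (background 0.937%) and 0 without overlap (16.3%). The difference between the sets in the genotype effect was called by edgeR for 0 of the 10, and for 0.0% of genes.

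**Figure D4:**
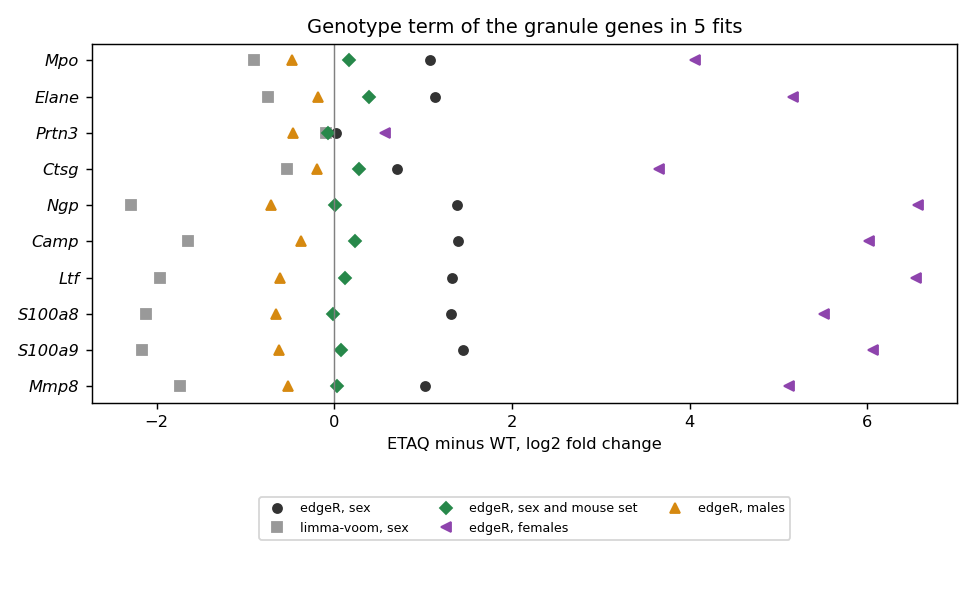
ETAQ over WT log2 fold changes of the 10 granule genes in 5 fits: edgeR with sex, limma-voom with sex, edgeR with sex and mouse set, and edgeR within females and within males. The values with mouse set in the model lie between -0.07 and 0.39, while those within females reach 6.57 and those within males and by limma-voom lie below 0.

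The genotype difference was also fitted within each sex, an analysis added after the data were seen. Among females, whose WT mice all belong to mice 7 to 12, the ETAQ over WT log2 fold changes were 0.57 to 6.57 (median 5.33). Of the 10 genes, 3 (Ngp, Ltf and S100a9) had an unadjusted p under 0.05 and 0 were called by edgeR, against 0.739% of genes. At that unadjusted threshold, 8.85% of all genes passed. DESeq2 called 2, Ltf and S100a9, with a smallest adjusted p of 0.0339, against 1.33% of genes, and gave no adjusted p for Mmp8. Without mouse 1, the 1 ETAQ female of the first set, the edgeR values were -1.88 to 2.04 (median 0.46).

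Among males, whose WT mice all belong to mice 1 to 6, the values were -0.72 to -0.19 (median -0.50), with 0 called (background 0.669%). Without mouse 11, the 1 ETAQ male of the second set, they were -0.25 to 0.41 (median 0.02). The difference between the sexes in the genotype effect was 1.03 to 7.29, and edgeR called 0 of the 10 (background 0.0%).

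Sex itself was called for 0 of the 10 genes when mouse set was in the model, with male over female log2 fold changes of -0.66 to -0.12 (background 0.0524% by edgeR). Without mouse set in the model, an added fit, the values were 0.67 to 2.65 and 0 were called (background 0.0931%). When mouse 1 was also left out, they were 1.11 to 6.69 and all 10 were called by edgeR, against 1018 genes (5.85%). In that fit the males are 5 mice of the first set and mouse 11, and the females are all from the second set.

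Other genes of the neutrophil lineage differed between the mouse sets in the same direction. Of 21 tested genes for further granule, phagocyte oxidase and enzyme products, 16 were called higher and 0 lower in mice 1 to 6, with a median log2 fold change of 1.27. Of all genes tested, 4.93% were called higher and 2.96% lower. The examples with the smallest p were Anxa1, which encodes annexin A1 (3.94), Cybb, which encodes the oxidase subunit gp91phox (3.45), and Cd177, a neutrophil surface glycoprotein gene (6.64). Cd177 was at 0 to 0.0678 CPM in mice 7 to 12, so it met the filter on low counts only through mice 1 to 6. Genes of this kind, here and in the lists below, could only be called higher, so the counts of calls are descriptive. In this list 10 of the 30 genes found in the tables stood at 1 CPM or more in mice 7 to 12, some of them genes that microglia also express. At 0 counts in every mouse from 7 to 12 were Stfa1, Stfa2, Stfa2l1, Stfa3, BC100530, Bpi and Ms4a3. Of these, Stfa2, Stfa3 and Bpi were also at 0 in every mouse from 1 to 6, and Stfa1, Stfa2l1 and BC100530 had at most 2 counts there. Ms4a3 had 2 to 11 counts in mice 1 to 6.

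Of 13 tested genes for neutrophil surface molecules and blood neutrophil transcripts, 10 were called higher and 0 lower, with a median of 1.36. Retnlg, a neutrophil-expressed resistin-like gene, differed by 7.66, and Cxcr2, a chemokine receptor gene, by 1.36. Of 7 tested transcription factors of the granulocyte lineage, 3 were called higher: Cebpe, which drives specific granule genes (4.02), Myb (1.24) and Irf8 (0.59). Retnlg and Cebpe, at no more than 0.0678 and 0.0362 CPM in mice 7 to 12, met the filter only through mice 1 to 6. Ly6g, the gene of the defining mouse neutrophil surface marker, and Clec4e were at 0 counts in every mouse from 7 to 12. In mice 1 to 6, Ly6g had 0 to 3 counts and Clec4e had 2 to 19. Of 14 neutrophil chemoattractant and adhesion genes, only 2 had enough counts to be tested, and 0 of these were called in edgeR. In the genotype fit with sex, edgeR called 0 genes of these neutrophil lists.

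Marker lists of other blood-cell lineages and of other tissues moved with mouse set too. Their part in the granule gene values was not tested, nor was whether these transcripts came from blood or from tissue around the cord. Of 19 tested erythroid genes 15 were called higher in mice 1 to 6 (median 3.86), and the list summed to 2822–4384 CPM against 1025–1092. Of 10 tested B-lineage genes 7 were higher and 1, Ebf1, lower (median 2.47). The B-lineage sums nevertheless overlapped, at 93.99–109.5 CPM against 91.99–107.5, with Ebf1 alone at 58.1–67.7 CPM against 72.4–80.0. Of 10 megakaryocyte genes 5 were higher (1.54), and of 13 bone genes 7 were higher (1.26). Of 15 skeletal muscle genes 12 were higher (6.04), with sums of 127.6–1071 CPM against 56.7–65.1. All 6 peripheral myelin genes were higher (2.51), with sums of 326.8–758.8 CPM against 77.3–100.2. These markers did not all share 1 order of mice within the first set. The 10 granule genes, the megakaryocyte genes and the fat genes summed highest in mouse 1. The further granule, oxidase and enzyme genes and the muscle genes summed highest in mouse 2, and peripheral myelin genes in mouse 3. Neutrophil surface, erythroid and bone genes did so in mouse 6.

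Of the 14 microglial genes, 0 were called between the sets by edgeR (median 0.03), and their sums of 370.9–494.4 CPM overlapped the 382.5–443.9 CPM of mice 7 to 12. Markers of the resident phagocytes of the cord thus overlapped between the sets, where the granule genes did not. Monocyte and macrophage genes gave 8 of 12 higher (median 2.0).

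**Figure D5:**
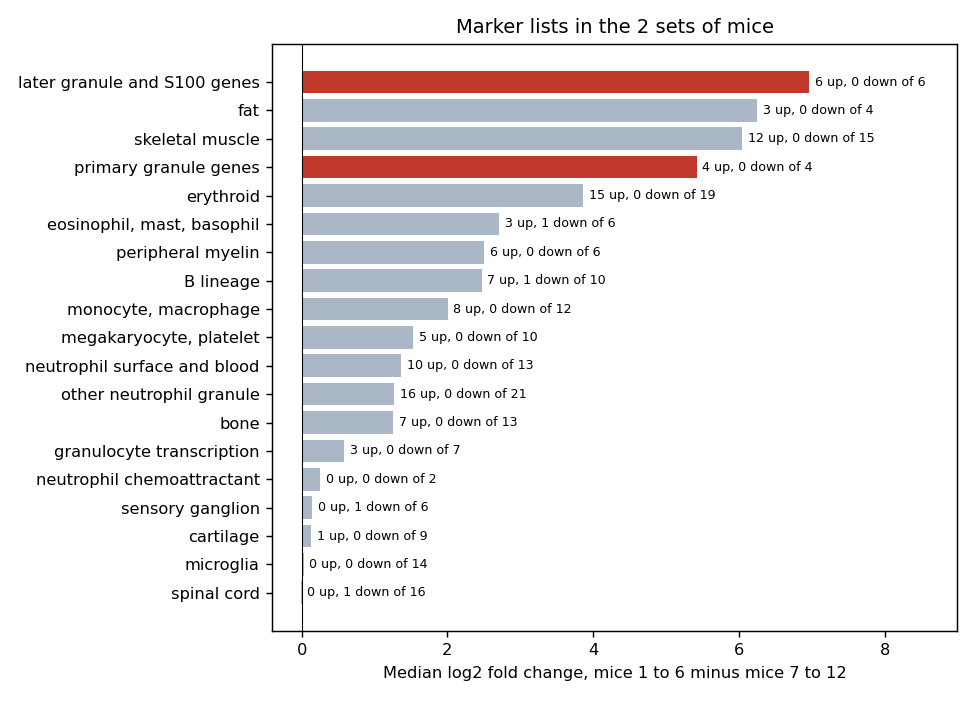
Median log2 fold change between the mouse sets for each marker list, with the number of genes called higher or lower beside it. The granule genes, skeletal muscle, fat and erythroid lists lie farthest to the right, and the microglial and spinal cord lists lie near 0.

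Outside the 10, the genes whose log2 CPM followed the mean of the granule genes most closely over the 12 libraries were Retnlg (Pearson r = 0.998), Rhag (0.996), Cd177 (0.996), Ctse (0.995), Chi3l3 (0.994), Lyz2, Slc4a1 and Plac8 (each 0.992). The 12 points fall in 2 clusters, the mouse sets, so these values describe that split, and the libraries also share their scaling. Over mice 1 to 6 alone the same genes gave 0.904, 0.839, 0.934, 0.926, 0.967, 0.759, 0.766 and 0.884. Rhag and Slc4a1 encode erythrocyte membrane proteins. Among the 10 themselves, each against the mean, the 12-library value ran from 0.904 for Prtn3 to 0.998 for Camp. That mean includes the gene itself, so these values cannot be set beside those of the genes outside the 10. Over mice 1 to 6 it ran from -0.0968 for Ctsg, whose values rest on few counts, to 0.972 for S100a9.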

How the data were processed

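The deposited tables, 1 for each of 12 mice, hold per gene the expected count and the TPM that the authors' RSEM run gave, per the file headers. RSEM 1.2.12 and Bowtie2 2.2.0 are named in the submitters' processing notes, and the genome build, annotation and strand setting are not given in the sources used here. Expected counts (15.4% of the deposited values were not whole) were rounded. No column of another sample was used. Genes were filtered with filterByExpr over the groups of genotype and sex, of 3 mice each, and scaled by TMM. They were tested with edgeR 4.0.16 (R 4.3.3, quasi-likelihood) in 3 models. The first held genotype, sex and mouse set, the next genotype and sex, and the last genotype within each mouse set. All models used the 12 mice, so that comparisons within a set share 1 estimate of the spread. P-values were adjusted (Benjamini-Hochberg) over 17189 genes, with a threshold of 0.05. CPM are TMM-scaled, and levels between genes are compared in TPM. The scripts were tested on simulated data.

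The labels give each library its own mouse. The 10 genes, the 19 marker lists and the split by mouse number were chosen with earlier results of these data known. Of 248 list entries 247 matched a row by symbol or Ensembl identifier. All 10 genes were named. From other lists, up to 3 called genes with the smallest p were named, as were listed genes called lower. Genes with 0 counts in all of mice 7 to 12 were named for the neutrophil lists only. The 8 genes most like the 10 by Pearson correlation were also named. Alternatives were DESeq2 1.42.0, limma-voom (limma 3.58.1), other scalings, no filter, other covariates and leaving out each mouse. Fits of genotype within each sex, sex without mouse set, and the early-to-late share without Prtn3 or in CPM were added after the data were seen. Promoters came from RefSeq (GRCm38.p6, all 10 matched) and gene positions from GENCODE M21. Depth, from 23595929 to 41452662 counts, limits values of a few counts. The exact intervals (95%) cover counting error only.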

Additional observations from a re-analysis of the deposited data

Results flagged for a closer look

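In 40 groups of 6 mice (each of the 10 genes in each mouse set and each genotype), 2 held a mouse far from the other 5 by Dixon's test. The test singles out about 1 in 20 groups by chance only where groups are independent and normally spread. That rate does not hold here, since each mouse is in 2 groups of a gene and many values are 0. Ctsg was at 0.0339 CPM in mouse 12, which is 1 count, and at 0 in the other 5 mice numbered 7 to 12. Ltf was at 0.711 CPM in mouse 9, with the next of mice 7 to 12 at 0.237 CPM, a gap of 0.666 of that group's range.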

How the results depend on the processing

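The comparison of mouse sets kept all 10 genes called, in the same direction, under DESeq2, limma-voom, both other scalings, no filter and without sex in the model. Over all genes, the 1356 called became 3533 without sex in the model, and between 163 (without mouse 1) and 1563 (without mouse 3) when 1 mouse was left out; without mouse 11 it was 284. Of the 10, between 8 and 10 were called when a mouse was left out. The genotype comparison with all 12 mice called 0 of the 10 under every test, scaling and filter and with mouse set in the model (DESeq2 gave no adjusted p for 2 of them), and 0 with any 1 mouse left out. Its 330 genes became 506 with DESeq2, 127 within females and 115 within males. Its fold changes changed sign with limma-voom: -0.91 for Mpo, -0.74 for Elane, -0.092 for Prtn3, -0.54 for Ctsg, -2.29 for Ngp, -1.65 for Camp, -1.97 for Ltf, -2.12 for S100a8, -2.16 for S100a9 and -1.74 for Mmp8. With mouse set in the model, Prtn3 became -0.073 and S100a8 -0.021. Leaving out each mouse gave -0.35 to 1.59 for Mpo, -0.15 to 1.65 for Elane, -0.39 to 0.24 for Prtn3, -0.26 to 1.19 for Ctsg, -0.51 to 2.05 for Ngp, -0.34 to 1.97 for Camp, -0.39 to 1.97 for Ltf, -0.50 to 1.94 for S100a8, -0.42 to 2.15 for S100a9 and -0.49 to 1.56 for Mmp8. The lowest value of each came without mouse 1, and the highest without mouse 11 except for Prtn3 (without mouse 3). Genotype calls over all genes ranged, with 1 mouse left out, from 72 to 142 in mice 1 to 6 (138 with all mice) and from 72 to 165 in mice 7 to 12 (161 with all mice). For the difference between the sets in the genotype effect they ranged from 0 to 3 (0 with all mice, 4 with DESeq2). The 9 genes called for sex became 14 with no filter and 16 without mouse set in the model. The median early-to-late share in mice 1 to 6, 1.44%, was 0.986% without Prtn3 and 4.39% in CPM. Except where an alternative changes the genes summed or the unit, the cause was not tested. No paired analysis was possible because mouse numbers in the titles are unique, so no 2 groups share a number. A fit of mouse set within each sex was not run. Depth limits mice 7 to 12, where Elane, Ctsg and Mmp8 had at most 2 counts in any library, Camp at most 5 and Mpo at most 7. The other 5 genes reached between 18 and 36.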

Other observations

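Some genes of other granulocytes and of fat also differed between the mouse sets, where 4.93% of all genes tested were called higher and 2.96% lower. Of 6 tested genes of eosinophils, mast cells and basophils, 3 were called higher and 1 lower in mice 1 to 6 by edgeR. The lower one was Kit, a receptor gene that neurons also express (-0.30 ± 0.06, SE). The higher ones were Prg2, which encodes eosinophil major basic protein (log2 fold change 6.21 ± 0.67, SE), Prss34, a basophil and mast cell protease gene (5.37 ± 0.66), and Ear2, an eosinophil-associated ribonuclease gene (4.6 ± 0.66). These 3 were at no more than 0.102 CPM in mice 7 to 12, so they met the filter only through mice 1 to 6. The sums of the 16 genes found for this list overlapped, at 32.7–37.8 CPM in mice 1 to 6 against 35.6–42.4 CPM. Of 4 tested fat genes, 3 were called higher: Fabp4, which encodes the adipocyte fatty acid binding protein (8.91 ± 0.91), Adipoq, which encodes adiponectin (5.25 ± 0.76), and Cidec, a lipid droplet gene (7.25 ± 1.23). Fabp4 ranged from 0.681 to 13.3 CPM in mice 1 to 6, a larger ratio of highest to lowest than that of any of the 10 granule genes there. The 3 fat genes were at no more than 0.0614 CPM in mice 7 to 12, so they too met the filter only through mice 1 to 6. Of 9 tested cartilage genes 1 was called higher, Comp (1.51 ± 0.42), and of 6 tested sensory ganglion genes 1 was called lower, Tac1, which encodes substance P (-0.29 ± 0.07).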
